A study of Mus musculus with 7 samples.

Results

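Cirbp and Rbm3 encode the best known RNA-binding proteins whose amount rises when mammalian cells are cooled mildly. Their rows were taken by symbol from the table of expression values of the cerebral cortex, so 2 of the 24346 genes listed are described here. They were selected on their FPKM in these same animals, known to be higher in CrT-/y than in CrT+/y cortex, so that difference is given as a description and carries no test. The study compared male CrT-/y mice (n = 4), which lack exons 5 to 7 of Slc6a8 in every cell of the body, with their CrT+/y littermates (n = 3). Slc6a8 is X-linked and encodes the creatine transporter (CrT), which carries creatine into cells. All 7 mice had a C57BL/6J background and were killed at postnatal day 100, and each gave 1 bulk RNA-seq library of dissected cortex. The study's methods state that the room was temperature-controlled and that the mice were killed in a common window of the light phase. Body and brain temperature are not given in the sources used here. The labels number the CrT-/y animals 0 to 3 and the CrT+/y animals 1 to 3.

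Cirbp (cold-inducible RNA-binding protein) and Rbm3 (RNA-binding motif protein 3) are small proteins with a single RNA recognition motif followed by a tail rich in glycine and arginine. Mild cooling raises both, heat lowers them, and their transcripts follow the daily rhythm of body temperature. Cirbp is also known to respond to ultraviolet light, to hypoxia and to other stresses, and it binds transcripts of clock genes. Rbm3 is known from cooled and hibernating brain, where it has been tied to the regrowth of synapses and to the survival of neurons. The temperature response of both genes includes alternative splicing, in which an inclusion of certain exons sends the transcript to nonsense-mediated decay.

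In the annotation of the mouse build GRCm38, which is mm10, Cirbp (ENSMUSG00000045193.13) lies on chromosome 10 at chr10:80165985-80172786 on the plus strand. Its 7 annotated transcripts comprise 2 protein-coding forms, 1 form marked for nonsense-mediated decay and 4 with a retained intron. The principal form has 7 exons, 1321 bases and a coding sequence of 516 bases. Rbm3 (ENSMUSG00000031167.16) lies on chromosome X at chrX:8138975-8145880 on the minus strand, with 11 transcripts, 6 of them protein-coding and 2 marked for nonsense-mediated decay. Its principal form also has 7 exons, with 2792 bases in all and 462 coding bases. The deposited values are per gene, so productive and decaying transcripts cannot be told apart in what follows.

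The coding sequences of both genes were set side by side because similar genes can share reads. Over 450 aligned pairs of bases, 330 were identical (73.3%), and the longest run common to both transcripts was 11 bases. It lies in the stretch printed here, bases 169 to 233 of each coding sequence, in which the shared run, bases 196 to 206, is in capitals.
Cirbp coding stretch: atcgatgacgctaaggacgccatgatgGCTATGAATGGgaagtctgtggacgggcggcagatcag
Rbm3 coding stretch: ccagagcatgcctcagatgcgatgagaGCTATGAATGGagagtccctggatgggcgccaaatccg
The shared run is far shorter than the sequenced reads, so a read of one gene does not match the other whole. Rbm3 has other close copies. Of the genes with a match of at least 200 bases to its coding sequence, 6 were processed pseudogenes, and 4 of these were at least 95% identical to it. The closest was Rbm3-ps, at 99.4% over 462 bases, whereas no processed pseudogene reached 95% for Cirbp. These pseudogenes are not among the listed genes. Phospho2 is listed, and an annotated transcript of it matched the Rbm3 coding sequence at 97.0% over 305 bases, on the opposite strand. The authors kept unique alignments only, so Rbm3 can have lost reads that fit a pseudogene or that transcript as well. How many it lost was not tested.

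RefSeq's promoter sequences (build GRCm38.p6) matched 1 of both genes, Cirbp. It has 2 entries, and the one farther upstream is used. Because Cirbp holds a sequence known as the mild cold response element, part of this entry is shown. This part, 189 bases of a window of 300 bases, ends ahead of the first annotated transcript start inside the window. It lies at chr10:80167589-80167777 on the plus strand, inside the span of the gene given above, since another annotated transcript starts farther upstream, and the capitals mark the octamer TCCCCGCC of that element and a pair of CCAAT boxes, of which the later one reads on the opposite strand.
Cirbp promoter: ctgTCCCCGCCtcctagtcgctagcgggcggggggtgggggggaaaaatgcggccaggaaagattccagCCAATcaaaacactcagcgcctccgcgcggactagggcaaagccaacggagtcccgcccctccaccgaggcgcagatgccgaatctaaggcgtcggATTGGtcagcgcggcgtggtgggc
The octamer, searched on both strands, had 1 match in the window, at base 4, and occurred in 5.38% of 32851 mouse promoters of the same length. CCAAT had 2 matches, and 37.4% of promoters held at least 1. The GC box GGGCGG, which Sp1 can bind, had 3 matches, 2 of them in the part shown, and 35.7% of promoters held it. The window held no match to the heat shock element GAANNTTC (in 7.86% of promoters), to the E-box CACGTG (7.15%) or to the cAMP response element TGACGTCA (1.79%). A match is a description of letters and not a site shown to be bound.

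Values are FPKM, the fragments of a gene that the authors divided by its length and by the mapped fragments of the library. Levels of different genes can thus be compared, and the file gives no read depth. The targeted gene was read first as a check of the labels. Slc6a8 stood at 12.4, 14.9, 14.7 and 15.7 FPKM in CrT-/y animals 0 to 3, against 32.3, 29.6 and 28.0 FPKM in CrT+/y animals 1 to 3. All 7 animals thus had the level their label implies, and CrT-/y cortex kept 48.1% of the CrT+/y mean, a value for the whole gene and not for the deleted exons (log2 difference -1.05, limma adjusted p = 0.0024).

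Cirbp was at 108.0, 102.1, 94.1 and 83.7 FPKM in CrT-/y animals 0, 1, 2 and 3. In CrT+/y animals 1, 2 and 3 it was at 71.2, 50.3 and 46.9 FPKM. Every CrT-/y animal was above every CrT+/y animal, and the lowest CrT-/y value was 1.18 times the highest CrT+/y value. The means were 97.0 ± 10.5 FPKM (SD, n = 4) and 56.1 ± 13.2 FPKM (SD, n = 3), a ratio of 1.73. On the log2 scale of FPKM + 0.1 the difference was 0.81, with a standard error of 0.14 from limma. Spread was larger among the controls, with a coefficient of variation of 23.5% against 10.8% in CrT-/y animals.

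Rbm3 was at 124.6, 128.8, 128.0 and 93.6 FPKM in CrT-/y animals 0, 1, 2 and 3. In CrT+/y animals 1, 2 and 3 it was at 87.1, 58.9 and 54.9 FPKM. Here too the groups did not overlap, but the lowest CrT-/y value was only 1.07 times the highest CrT+/y value. The means were 118.8 ± 16.9 FPKM (SD, n = 4) and 67.0 ± 17.6 FPKM (SD, n = 3), a ratio of 1.77, and the log2 difference was 0.84 with a standard error of 0.17. The coefficient of variation was again larger in CrT+/y animals, at 26.2% against 14.2%.

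**Figure D1:**
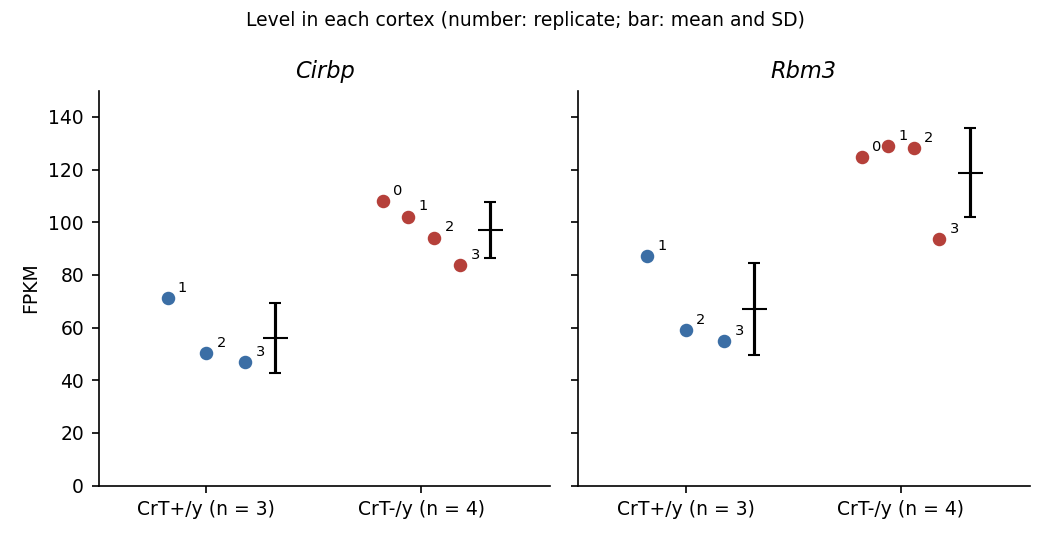
FPKM of Cirbp and of Rbm3 in each cortex, on an axis from 0, with CrT+/y animals on the left and CrT-/y animals on the right of each panel. Points are animals, numbered as in the labels, and the bar beside them is the mean and SD. All 4 CrT-/y points lie above all 3 CrT+/y points in both panels, and CrT+/y animal 1 comes closest to them.

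The same animals stood at the inner edges of both groups. CrT+/y animal 1 had the highest control value of both genes, and CrT-/y animal 3 had the lowest CrT-/y value of both. For Cirbp, the gap between these animals was 12.5 FPKM, less than the 21.0 FPKM between CrT+/y animal 1 and the next control. For Rbm3, the gaps were 6.52 FPKM and 28.2 FPKM. CrT+/y animal 1 was therefore nearer to CrT-/y animal 3 than to the next control. Without CrT+/y animal 1 the log2 differences were 0.99 for Cirbp and 1.05 for Rbm3, and without CrT+/y animal 3 they were 0.69 and 0.72. These were the extremes over the 7 fits that each left out 1 animal. Without CrT-/y animal 3 they were 0.87 and 0.95. Both genes stayed higher in every CrT-/y animal after upper quartile scaling and after quantile normalization of the 7 libraries.

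Set against the mean of the controls, Cirbp was at 192%, 182%, 168% and 149% in CrT-/y animals 0 to 3, and Rbm3 at 186%, 192%, 191% and 140%. The controls were at 127%, 89.5% and 83.5% for Cirbp and at 130%, 88.0% and 81.9% for Rbm3. The ratio of Rbm3 to Cirbp did not separate the genotypes. It was 1.15, 1.26, 1.36 and 1.12 in CrT-/y animals and 1.22, 1.17 and 1.17 in CrT+/y animals. Rbm3 was thus the more abundant of both in all 7 cortices, and the groups overlapped in this ratio.

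Both genes are abundant in cortex. Ordered by FPKM among all listed genes, Cirbp had ranks of 635 to 887 in CrT-/y cortex and 1180 to 1835 in controls. Rbm3 had ranks of 504 to 747 and of 924 to 1548. Of the 12988 genes whose mean reached 1 FPKM, which include both, 49 (0.377%) had a larger log2 difference than Rbm3 and 58 (0.447%) a larger one than Cirbp. Both genes were picked as higher in CrT-/y cortex, so their place in this order is a description and not a test. Among the 1659 genes at 50 FPKM or more in the mean of both genotypes, only the small nucleolar RNA Snora81 had a larger difference, and it was at 0 FPKM in 4 of 7 animals. Snora81 was singled out after its values were seen.

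For the rest of the text, a gene was called when limma, fitted to genotype over all 12988 genes, gave it a Benjamini-Hochberg adjusted p under 0.1, the threshold of the study. Calls made up 10.1% of genes, with 2.9% higher and 7.25% lower in CrT-/y animals. In 6.57% of genes every CrT-/y animal was above every CrT+/y animal, and in 15% every one was below. Cirbp and Rbm3 belong to the 6.57% by the way they were picked, so nothing is read from that. The balance of directions moved with the scaling, from 377 higher and 941 lower to 604 higher and 499 lower with upper quartile scaling and 528 and 555 with quantile normalization. The median log2 difference of all genes was -0.03. The calls rested on few animals, since the total of 1318 ranged from 64 without CrT-/y animal 1 to 3736 without CrT+/y animal 3.

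Libraries and tissue makeup were compared because both can move bulk values, and in bulk cortex fewer cells of a type and less RNA per cell cannot be told apart. Summed FPKM ranged from 382949 to 403414, and genes above 0 FPKM numbered 17612 to 17821 in CrT-/y and 17207 to 17477 in CrT+/y libraries. On the first principal component, scores were -13.4 to -8.14 for the CrT-/y group, and CrT+/y animals 1, 2 and 3 were at 24.6, 13.0 and 4.00. The control nearest to the CrT-/y animals in Cirbp and Rbm3 was thus the farthest from them on this component. Summed markers of excitatory neurons (6 genes) were at 726 to 811 FPKM in CrT-/y and 724 to 879 FPKM in CrT+/y animals, so markers of cortex were present in all 7 libraries, and 2 of the 6 were called lower. Those of interneurons were at 788 to 923 and 864 to 877 FPKM, with 1 of 5 called higher. Those of astrocytes were at 246 to 296 and 259 to 294 FPKM, and those of microglia at 70.5 to 72.9 and 67.7 to 77.8 FPKM. Oligodendrocyte markers were at 724 to 1103 and 1027 to 1329 FPKM, with the lowest value in CrT-/y animal 3. Endothelial markers were at 40.5 to 54.5 and 52.9 to 63.1 FPKM, with 2 of 3 called lower, and markers of dividing cells and neuroblasts were at 13.0 to 14.4 and 10.6 to 13.1 FPKM. Tissue from beside the cortex differed between animals. Markers of choroid plexus and ependyma reached 396.7 FPKM in CrT+/y animal 2 against at most 54.0 FPKM elsewhere, and striatal markers spanned 65.5 to 163 and 33.0 to 158 FPKM. Olfactory bulb markers were at 5.95 to 16.3 FPKM in CrT-/y and 2.91 to 5.24 FPKM in CrT+/y animals, without overlap, and 1 of the 2 genes tested was called higher. No other marker that was tested was called. Of all genes, 2.9% were called higher and 7.25% lower, and in 6.57% every CrT-/y animal was above every CrT+/y animal. Lists this short, and sums of genes, cannot be compared closely with those shares. No marker in these lists was at 0 in all animals. Without CrT+/y animal 2 the log2 differences were 0.74 for Cirbp and 0.77 for Rbm3, and without CrT-/y animal 1, the animal with the most olfactory bulb signal, 0.78 and 0.80. The part of the olfactory bulb signal in these differences was not tested.

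Genes known to act on Cirbp or Rbm3, or tied to them in other ways, moved in both directions. Of 13 such genes, 11 were tested (Tlr4 and Trpv4 were under 1 FPKM), and 5 were called (45.5%, against 10.1% of all genes), 2 higher and 3 lower, with a median log2 difference of -0.06. Of the regulators, Hnrnph1, a splicing factor known to act on the decay-inducing exon of Rbm3, fell from 117.9 ± 15.7 to 89.5 ± 4.2 FPKM. Its CrT-/y animals were at 93.6, 86.6, 92.5 and 85.2 FPKM, its controls at 125.9, 128.1 and 99.8 FPKM, without overlap (log2 difference -0.39, SE 0.09, limma adjusted p = 0.052). Creb1, a transcription factor in the TrkB pathway that has been placed upstream of Rbm3 in cooled neurons, fell as well, by 0.33 on the log2 scale (limma adjusted p = 0.054). It was at 10.6 to 11.1 FPKM in CrT-/y animals and 14.9, 14.5 and 12.1 FPKM in CrT+/y animals. The receptor of that pathway, Ntrk2 (log2 difference -0.06), and its phospholipase Plcg1 (-0.07) were not called. Nor was Sp1 (-0.06, limma adjusted p = 0.65), the factor known to bind the mild cold response element.

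Among the other genes of this list, Eef2k encodes the kinase that slows translation elongation by phosphorylating elongation factor 2. It rose from 6.42, 6.61 and 7.12 FPKM in CrT+/y animals to 7.92, 8.66, 8.27 and 7.78 FPKM in CrT-/y animals (log2 difference 0.28, limma adjusted p = 0.063). Its substrate Eef2 stood at 384 ± 11.7 FPKM (n = 4) and 396 ± 25.9 FPKM (n = 3) and was not called. Txn1, thioredoxin, whose transcript Cirbp binds, was called higher (log2 difference 0.45, limma adjusted p = 0.083). Its groups overlapped, with 36.4 FPKM in CrT-/y animal 0 and 37.9 FPKM in CrT+/y animal 3. Rpa2, another transcript that Cirbp binds, had a log2 difference of 0.18 (limma adjusted p = 0.36), and Rtn3, a target through which Rbm3 has been tied to synapses, one of -0.14 (limma adjusted p = 0.24). Ly96, the co-receptor of Tlr4 to which Cirbp released from cells binds, fell to 1.54 ± 0.10 FPKM (n = 4) from 2.85 ± 0.84 FPKM (n = 3), a log2 difference of -0.81 (limma adjusted p = 0.058). Counts called in this list ran from 0 to 5 over the fits without 1 animal, and were 0 without CrT-/y animal 1, 2 or 3 and without CrT+/y animal 1 or 2.

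The cold-shock domain defines another family of RNA-binding proteins, related to bacterial cold-shock proteins but not to Cirbp and Rbm3. Of 7 tested genes, 1 was called (14.3%, against 10.1% of all genes). Ybx3 fell from 9.86, 10.2 and 9.45 FPKM to 7.80, 8.58, 8.43 and 7.23 FPKM (log2 difference -0.30, limma adjusted p = 0.065), and that call was lost without any animal other than CrT+/y animal 3. Ybx1 had a log2 difference of -0.32 with overlapping groups, as CrT+/y animal 3 had the lowest of all 7 values, 43.6 FPKM (limma adjusted p = 0.23). Without that animal 3 genes of the family were called. Csdc2 (-0.05), Ybx2 (-0.02), Lin28b (0.09) and Carhsp1 (0.11) were not called. The median was -0.05, near that of all genes.

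No other gene named for an RNA-binding motif was called higher in CrT-/y animals, except 1 under quantile normalization or upper quartile scaling and 2 without CrT+/y animal 3. Of 44 symbols beginning with Rbm, 38 were tested, and 6 were called, all lower in CrT-/y animals (15.8%, against 7.25% of all genes), with a median log2 difference of -0.09 and a range of -0.54 to 0.45. Rbm28, a nucleolar protein, was at 8.03, 7.09, 7.37 and 8.52 FPKM in CrT-/y animals, against 10.4, 11.9 and 11.6 FPKM in CrT+/y animals (log2 difference -0.54, limma adjusted p = 0.025). Rbm10, a splicing regulator, fell from 16.5 ± 0.84 to 13.1 ± 0.54 FPKM (log2 difference -0.33, limma adjusted p = 0.035), and Rbm12b2 from 4.42 ± 0.82 to 2.98 ± 0.27 FPKM (log2 difference -0.54, limma adjusted p = 0.063). The count was 1 without CrT-/y animal 1 or CrT+/y animal 1, 2 without CrT-/y animal 2 or 3, 3 without CrT-/y animal 0 or CrT+/y animal 2, and 16 without CrT+/y animal 3.

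Heat-inducible chaperone genes, which cells raise when warmed, were mostly lower in CrT-/y cortex. All 23 genes of the list were tested, 14 were called lower (60.9%, against 7.25% of all genes) and none was called higher. The list was chosen with earlier results of these data known, so these shares are a description and not a test. The median log2 difference was -0.26, 21 were lower in the mean, and in 15 the highest CrT-/y value was under the lowest CrT+/y value (15% of all genes did this). Chordc1, a partner of HSP90, had the largest difference. It was at 19.8, 19.1, 20.0 and 19.7 FPKM in CrT-/y animals, against 33.0, 36.3 and 32.1 FPKM in CrT+/y animals (log2 difference -0.78, SE 0.06, limma adjusted p = 0.0024), and its call held in all fits that left out an animal. Hspb1, a small heat shock protein, fell by 0.65 on the log2 scale (limma adjusted p = 0.083), with CrT-/y animals at 5.08 to 6.84 FPKM and CrT+/y animals at 7.12, 8.97 and 13.2 FPKM. Hspa1b, an inducible HSP70, fell by 0.71 (limma adjusted p = 0.077). It is near-identical to Hspa1a, which had a log2 difference of -0.42 (limma adjusted p = 0.19), and how reads were split between them is uncertain. Fewer genes of this list were called without an animal. The count was 3 without CrT-/y animal 1, 6 and 7 without CrT-/y animals 2 and 3, 9 without CrT-/y animal 0 or CrT+/y animal 1, 11 without CrT+/y animal 2 and 14 without CrT+/y animal 3. It was 9 with upper quartile scaling or with the replicate number as a block.

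The median deviation of the 23 chaperone genes from their mean over the 7 animals, on the log2 scale, was 0.15, 0.14 and 0.19 in CrT+/y animals 1, 2 and 3. In the same animals Cirbp was at -0.09, -0.59 and -0.69 and Rbm3 at -0.07, -0.64 and -0.74. The controls were thus closer together in this median than in either of these single genes. A median of many genes evens out the spread of its members, so both spreads are not of the same kind. In CrT-/y animals 0 to 3 the chaperone genes were at -0.10, -0.17, -0.11 and -0.04. In the same animals Cirbp was at 0.51, 0.43, 0.31 and 0.14 and Rbm3 at 0.44, 0.49, 0.48 and 0.03. From the highest to the lowest chaperone level, the CrT-/y animals stood in the order 3, 0, 2 and 1, which is their order from the lowest to the highest Rbm3. Rbm3 differed little between CrT-/y animals 0, 1 and 2, however, and from the lowest to the highest Cirbp the order was 3, 2, 1 and 0. Controls stood in the order 3, 1 and 2 from the highest chaperone level, and in the order 3, 2 and 1 from the lowest Cirbp and Rbm3. CrT-/y animal 3 had the lowest Cirbp and Rbm3 of its group.

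**Figure D2:**
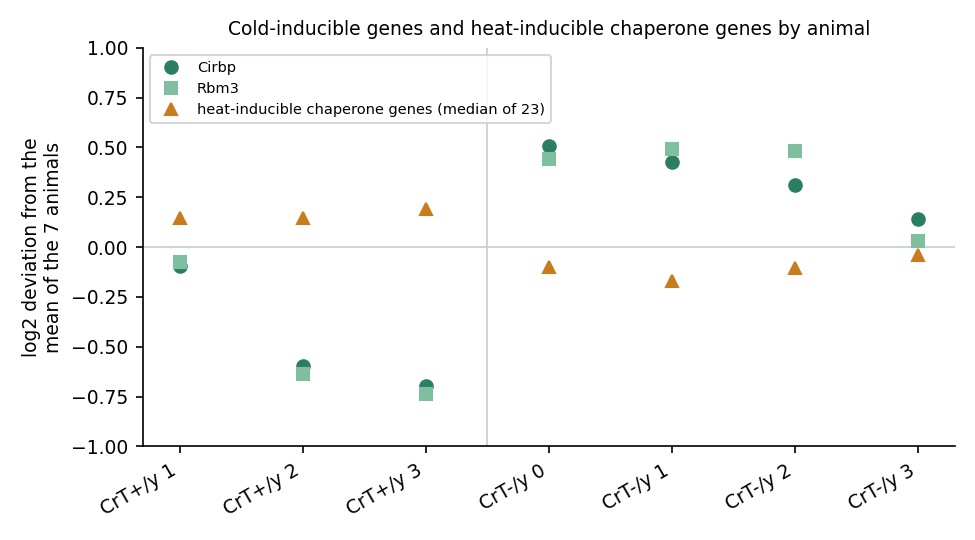
Deviation of Cirbp, Rbm3 and the median of 23 heat-inducible chaperone genes from the mean of the 7 animals (vertical axis, log2 scale) in each animal (horizontal axis, CrT+/y left of the line, CrT-/y right of it). Cirbp and Rbm3 lie below 0 in the 3 CrT+/y and above 0 in the 4 CrT-/y animals, and the chaperone genes the other way round.

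Of 19 tested clock genes, some of whose transcripts Cirbp binds, 1 was called (5.26%, against 10.1% of all genes), with a median log2 difference of -0.02 (0.02 with quantile normalization and 0.03 with upper quartile scaling). The gene called was Hlf, a transcription factor of the clock output, at 57.4, 62, 57.7 and 51.3 FPKM in CrT-/y animals and 80.9, 69.2 and 68.0 FPKM in CrT+/y animals (log2 difference -0.35, limma adjusted p = 0.056). That call was lost without CrT+/y animal 1 or any CrT-/y animal, and 3 genes were called without CrT+/y animal 3. The median hides a wide spread between animals in some clock genes that were not called. Ciart (log2 difference 0.75, limma adjusted p = 0.18) was at 8.12, 22.5, 17.4 and 9.07 FPKM in CrT-/y animals. In CrT+/y animals it was at 7.78, 7.05 and 8.29 FPKM. Dbp was at 28.7 to 66.5 FPKM in CrT-/y and 30.1 to 34.1 FPKM in CrT+/y animals. In the mean, 8 clock genes were higher and 11 lower. The kinases of the CLK and SRPK families and the SR splicing proteins they phosphorylate, which take part in temperature-dependent splicing, gave 4 calls among 18 genes, all lower (22.2%, against 7.25% of all genes), with a median of -0.04. With quantile normalization or upper quartile scaling 2 were called, and the median was 0.02 and 0.01. The 4 calls made without these scalings were Srsf10 (log2 difference -0.36, limma adjusted p = 0.051), Srsf4 (-0.31, adjusted p = 0.056), Clk3 (-0.26, adjusted p = 0.082) and Srpk1 (-0.24, adjusted p = 0.079). The count was 1 without CrT-/y animal 0, 0 without any 1 of CrT-/y animals 1 to 3 or CrT+/y animals 1 and 2, and 8 without CrT+/y animal 3. Hypoxia-inducible genes gave 1 call among 14 (7.14%, against 10.1% of all genes), with a median of -0.06. P4ha1, a prolyl hydroxylase of collagen synthesis, fell from 14.5, 19.0 and 13.9 FPKM to 9.17, 10.1, 10.4 and 8.49 FPKM (log2 difference -0.71, limma adjusted p = 0.026), and its call held without each animal. Without CrT+/y animal 3, 5 genes of the list were called.

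**Figure D3:**
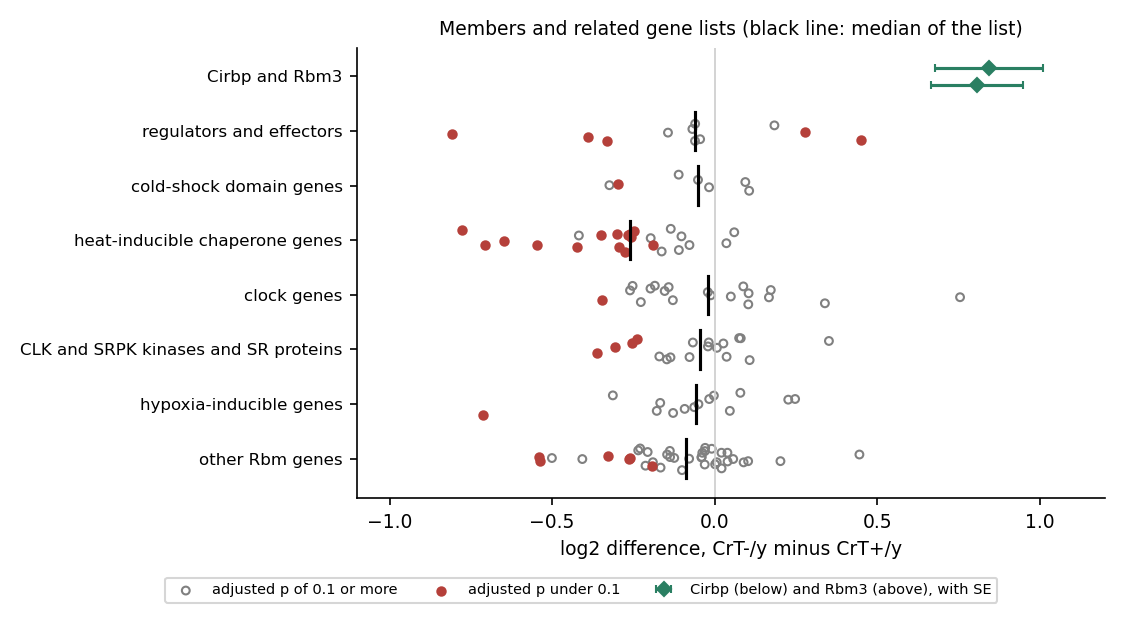
Log2 difference (CrT-/y minus CrT+/y, horizontal axis) of Cirbp and Rbm3, as diamonds with the standard error, and of each tested gene of 7 lists (rows), with filled points at an adjusted p under 0.1, open points otherwise and a black line at each list's median. Cirbp (0.81) and Rbm3 (0.84) lie to the right of the genes of all 7 lists, and the chaperone list has its median at -0.26.

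The genes beside Cirbp and Rbm3 were examined next. Of the 3 tested genes nearest on each side of Cirbp and of Rbm3, 12 in all, 0 were called by limma, where 10.1% of all genes were. Around Cirbp, Midn, which ends 7.6 kb before it, had a log2 difference of -0.32 (SE 0.16, limma adjusted p = 0.26), and 1600002K03Rik, 0.2 kb after it, one of 0.21 (SE 0.33, limma adjusted p = 0.73). Dos, Atp5d, Efna2 and Mum1 were between -0.03 and 0.13. Around Rbm3, Ebp, the sterol isomerase of cholesterol synthesis, had the lowest value, -0.22 (SE 0.11, limma adjusted p = 0.24), and Suv39h1, a histone methyltransferase, the highest, 0.18 (SE 0.06, limma adjusted p = 0.13). Suv39h1 passed the threshold with upper quartile scaling, at 0.23 (limma adjusted p = 0.082), and without CrT+/y animal 3 so did Mum1, at 0.24 (limma adjusted p = 0.053), and Atp5d, at 0.12 (limma adjusted p = 0.097). Hdac6, Wdr13, Tbc1d25 and Porcn were between -0.08 and 0.09. Rbm3 and the deleted Slc6a8 share the X chromosome but lie 65.5 Mb apart.

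**Figure D4:**
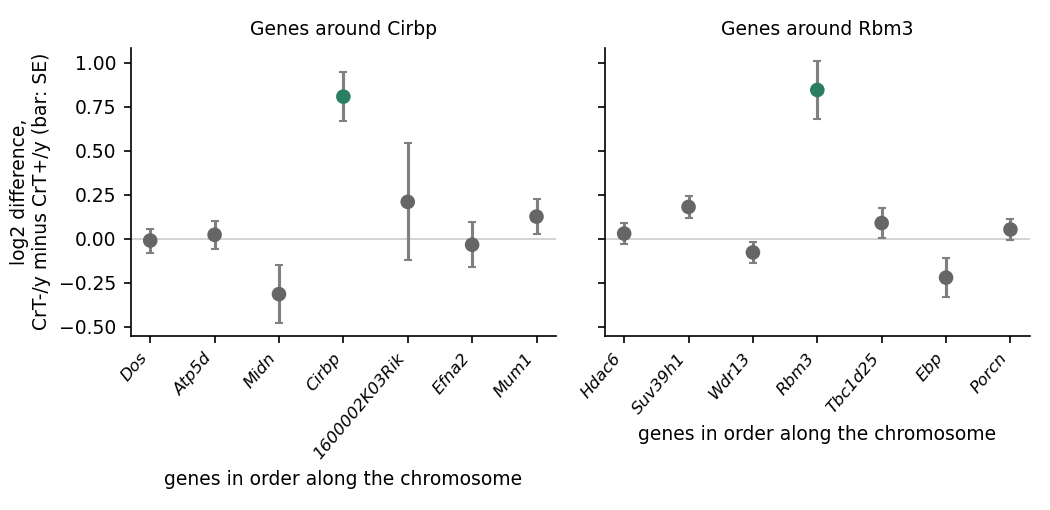
Log2 difference (CrT-/y minus CrT+/y, vertical axis, bars are standard errors) of Cirbp, Rbm3 and the 3 tested genes on each side of them, in chromosome order and not to scale. Cirbp and Rbm3 lie at 0.81 and 0.84, and the 12 neighbours between -0.32 and 0.21.

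The antisense RNA Rbm3os overlaps Rbm3 over 452 bases. It was listed at 0.43, 0.36, 0.34 and 0.45 FPKM in CrT-/y animals, against 0.43, 0.38 and 0.16 FPKM in CrT+/y animals, with overlapping groups, and it was under the filter of 1 FPKM and so not tested. Whether the counting used the strand is not given in the sources used here, and without it reads of that stretch cannot be told apart. Rbm3 was listed at more than 50 FPKM in every animal, so Rbm3os is a small part of the signal of this locus.

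By the root mean square difference, Rbm3 had the profile most like that of Cirbp over the 7 animals, and Cirbp that most like Rbm3. This is the difference between their log2 values centred on each gene's mean, and it was 0.088 for this pair among 12987 genes ranked. Pearson's r over the same 7 animals was 0.985, by which Cirbp again ranked 1 for Rbm3 but Rbm3 ranked 3 for Cirbp. Points of both groups enter it, the genes were chosen for their difference between the groups, and each animal's library is shared, so it is a description. The next genes after Rbm3 in likeness to Cirbp were Klhl40 (0.160), Gm6537 (0.171), 6330415G19Rik (0.171) and 1700047M11Rik (0.184). After Cirbp, those most like Rbm3 were Gm6537 (0.147), 1700047M11Rik (0.168), Ovgp1 (0.176) and Klhl40 (0.192). The step from the first to the next gene was thus larger than any later step among these genes. The others were weakly expressed, with CrT-/y means between 1.37 FPKM for 6330415G19Rik and 4.34 FPKM for Klhl40. Klhl40, a Kelch family protein known from muscle, was at 4.23, 5.00, 4.13 and 3.99 FPKM in CrT-/y animals and 3.31, 2.34 and 2.70 FPKM in CrT+/y animals. It had the same highest control, CrT+/y animal 1, and the same lowest CrT-/y animal, 3, as Cirbp and Rbm3.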

How the data were processed

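Bulk cortex RNA of 7 male mice was sequenced. Groups and animal numbers came from the sample labels. The authors aligned paired-end reads to mm10 with the Tuxedo protocol (the submitters' notes name Bowtie and Cuffnorm), kept unique alignments to known exons and junctions with at most 2 mismatches, and deposited FPKM per gene and animal. FPKM are not counts, so no count model was used, and depth per library cannot be read from them, which leaves the precision of each value unknown beyond the spread between animals. No column was left out (0 not used).

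FPKM + 0.1 was put on the log2 scale, genes averaging 1 FPKM or more were fitted on genotype with limma 3.58.1 in R 4.3.3 (variance trend, Benjamini-Hochberg adjustment, threshold 0.1), and the fit was tested on simulated data. Both genes, the lists and the cell type markers were chosen with earlier results of these data known. The text names Slc6a8, all measured genes of the regulator and cold-shock domain lists (apart from 1 that is not reported here), the 3 called genes with the largest difference in each other list (Srpk1 beside them, after its value was seen), the 5 genes most like each of Cirbp and Rbm3, and 3 tested neighbours on each side. Gene models and transcripts came from GENCODE release M21 of GRCm38, and promoters and gene order from RefSeq, where 24211 of 24346 symbols had a position. Alternatives were a pseudocount of 1, no filter, quantile normalization, upper quartile scaling, a block on the animal number and each animal left out. Same-numbered animals of both genotypes did not deviate together (Pearson's r of deviations -0.078, 0.046 and -0.051 for numbers 1 to 3), so no pairing by number was seen. Deviations within so small a group sum to 0, so this cannot decide whether littermates share a number. Sequences and tables were handled with Python 3.11.15, Biopython 1.88 and pandas 2.3.3.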

Additional observations from a re-analysis of the deposited data

Results flagged for a closer look

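In 68 sets of 4 CrT-/y values, the lowest and the highest animal were compared with the other 3, and 3 sets had 1 animal set apart by most of the range. Chance gives about 1 in 20 such sets, so this number is not above it. The CrT+/y group, with 3 animals, was not examined in this way. Rbm3 in CrT-/y animal 3 was at 93.64 FPKM, below the other 3 animals at 124.6 to 128.8 FPKM. Creb1 in CrT-/y animal 2 was at 10.6 FPKM, below the other 3 at 10.997 to 11.1 FPKM. Summed olfactory bulb markers in CrT-/y animal 1 were at 16.27 FPKM, above the other 3 at 5.95 to 7.65 FPKM.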

How the results depend on the processing

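Cirbp and Rbm3 were higher in CrT-/y animals under every alternative. Cirbp had log2 differences of 0.80 with a pseudocount of 1, 0.87 with quantile normalization and 0.86 with upper quartile scaling, and of 0.69 to 0.99 without 1 animal. For Rbm3 these were 0.84, 0.90, 0.89 and 0.72 to 1.05. With the replicate number as a block they were 0.75 and 0.82. No pairing by number was seen, and CrT-/y animal 0 has no partner and drops out of that block, which gives the difference of the other 6 animals.

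Calls depended on the settings. Over the whole table, 1318 genes (377 higher, 941 lower) became 730 with no filter and 576 with the block, and the split was 528 higher and 555 lower with quantile normalization and 604 higher and 499 lower with upper quartile scaling. With no filter, calls numbered 3 of the regulators and effectors, 0 of the cold-shock domain genes, 2 of the CLK, SRPK and SR genes and 3 of the other Rbm genes. With the block they numbered 2, 0, 1 and 3, with 9 of the chaperone genes and 2 of the clock genes. With upper quartile scaling they numbered 0 of the cold-shock domain genes, 9 of the chaperone genes and 2 of the CLK, SRPK and SR genes, and quantile normalization also left 2 of the last. Without 1 animal, the ranges were 64 to 3736 over the whole table, 0 to 5 regulators and effectors, 0 to 3 cold-shock domain genes, 3 to 14 chaperone genes, 0 to 3 clock genes, 0 to 8 CLK, SRPK and SR genes, 1 to 5 hypoxia-inducible genes and 1 to 16 other Rbm genes. The cause was not tested beyond the loss of animals or of genes tested.

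Medians near 0 turned sign with quantile normalization and upper quartile scaling for the clock genes (0.02 and 0.03) and the CLK, SRPK and SR genes (0.02 and 0.01), without CrT+/y animal 2 for the same lists (0.01 and 0.0025), and with upper quartile scaling for all genes (0.02). Among the named genes, signs turned in those that were not called. Eef2 was at 0.0051 with upper quartile scaling and 0.0064 without CrT+/y animal 3 (range without 1 animal -0.085 to 0.0064). Ybx2 was at 0.029 with upper quartile scaling, 0.041 without CrT-/y animal 2 and 0.156 without CrT+/y animal 1 (range -0.150 to 0.156). Csdc2 was at 0.0083 with quantile normalization. Without 1 animal, Carhsp1 ranged from -0.057 (without CrT+/y animal 1) to 0.252 and Lin28b from -0.0063 (without CrT-/y animal 1) to 0.183. Dos was at 0.071 with quantile normalization, 0.039 with upper quartile scaling and 0.0027 to 0.029 without CrT-/y animal 1 or 3 or CrT+/y animal 3 (lowest -0.060). Efna2 was at 0.014 with upper quartile scaling and 0.010 to 0.041 without CrT-/y animal 3 or CrT+/y animal 1 or 2 (lowest -0.155). Atp5d was at -0.043 and -0.014 without CrT+/y animals 1 and 2 (highest 0.123). Without CrT+/y animal 2, 1600002K03Rik was at -0.084 (highest 0.598), Hdac6 at -0.0073 (highest 0.060) and Porcn at -0.00069 (highest 0.098). By Pearson's r in place of the root mean square difference, 1 of the 5 genes most like Cirbp and 2 of the 5 most like Rbm3 were the same. FPKM carry no depth, so the counting error of the low genes, such as Rbm3os and Ly96, is unknown.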
